A study of Drosophila melanogaster with 8 samples.

Results

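Odorant-binding proteins are small secreted carriers of hydrophobic molecules, first known from the fluid around olfactory neurons, where they meet odorants and pheromones before the receptors do. Several members of the insect family are made elsewhere. In Drosophila males a group of them belongs to the seminal fluid, which the accessory glands, ejaculatory duct and ejaculatory bulb add to sperm on the way out of the testis, and others are secreted by fat body or glia. The family in the count table was taken as every row whose symbol begins with Obp and a digit, which gave 51 genes of 22887 features. All 51 were matched by symbol to the Ensembl annotation of BDGP6, which uses dm6 coordinates.

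The libraries are total RNA of testes dissected from Drosophila melanogaster males 5 days old. There are 4 genotypes with 2 libraries each, from independent dissections: w1118, a white-eyed laboratory strain that serves as the control, a Tailor mutant, a Dis3L2 mutant and the Tailor/Dis3L2 double mutant. Tailor adds uridines to the 3′ ends of RNAs, and Dis3L2 is an exonuclease that prefers such tailed RNAs. The sources used here give neither the alleles nor the parent strains of the mutants, nor how many males went into a dissection. Total counts per library ranged from 9781275 in double mutant replicate 2 to 30059737 in double mutant replicate 1. Levels are given as CPM, reads relative to the scaled library size, and a change counts as called where the edgeR test over 14246 features gave it an adjusted p no higher than 0.05. RNA of Tailor stood at 82.6 and 87.0 CPM in w1118, 19.0 and 20.5 in Tailor mutant testes, 96.8 and 95.6 in Dis3L2 mutant testes and 22.8 and 21.1 in double mutant testes, and that of Dis3l2 (CG16940 in the table) at 115 and 117, 89.6 and 93.9, 9.99 and 10.6, and 30.7 and 30.8 in that order. All 12 germline markers of the testis had counts, and their summed level was 3379 to 5042 CPM over the 8 libraries. Against w1118, 0 of the 12 were called in Tailor mutant testes, where 2.00% of all features were called. Called higher were twe and CycB in Dis3L2 mutant testes (9.22% of all features called) and twe, bol and CycB in double mutant testes (11.6%). In dissected tissue, fewer cells of a type and less RNA per cell cannot be told apart.

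Genes of other tissues were not at equal levels across libraries. The 17 midgut genes listed as markers summed to 68.2 and 708 CPM in w1118 and 6.96 and 113 in Tailor mutant testes. They had 56.9 and 4.58 in Dis3L2 mutant testes and 5.04 and 5.61 in double mutant testes. The 7 blood cell genes summed to 144 and 140 CPM in w1118 and 115 and 165 in Tailor mutant testes. They had 284 in both Dis3L2 mutant libraries and 225 and 157 in double mutant testes. The 30 accessory gland genes listed as markers, none of them at 0 in all libraries, summed to 18570 and 17033 CPM in w1118, 54186 and 14415 in Tailor mutant testes, 5383 and 7121 in Dis3L2 mutant testes and 20493 and 15229 in double mutant testes. Tailor mutant replicate 1 was thus the highest and the Dis3L2 mutant libraries the lowest. The sum is weighted to genes of high level, and Acp36DE alone had 17863 CPM in Tailor mutant replicate 1. Most genes of the list were higher in that library than in w1118, but not all. Acp32CD had 470 and 489 CPM in w1118 and 450 in that library, and lectin-46Ca 355 and 387 against 371. The part that these levels play in the results below was not tested beyond a fit that carries the accessory gland level as a term. That fit also holds genotype, so the effect of its term is estimated from differences between the 2 libraries of a genotype. The Tailor mutant had by far the widest of these, and values of the fit lean mainly on that pair. Differences in gland level between genotypes cannot be told apart from genotype in it. Values of that fit are given for some genes, whether or not they change a call, and not for all.

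The testis libraries held a few odorant-binding protein genes at high level and most of the family at or near nothing. The share of all counts that fell on the family was 0.216% and 0.215% in w1118, 0.286% and 0.144% in Tailor mutant testes, 0.119% and 0.213% in Dis3L2 mutant testes and 0.155% and 0.130% in double mutant testes. Obp51a, Obp44a, Obp99a and Obp56f together made up 81.9% to 92.3% of the family's reads in a library. Compared per kilobase of exon in w1118, Obp51a was the most abundant, with 2391 and 2107 CPM per kb, followed by Obp44a with 553 and 502. Below them stood Obp99a with 288 and 273 CPM per kb, Obp56f with 201 and 202, Obp22a with 134 and 128, Obp56g with 77.6 and 70.0, and Obp56i with 44.3 and 45.4. These 7 did not overlap in the libraries of w1118. Obp99c, Obp56d and Obp56e came next at 12.6 to 21.4 CPM per kb. Libraries of Obp99c overlapped those of both others, and Obp56d (16.6 and 17.4) did not overlap Obp56e (16.2 and 12.6). Then came Obp8a with 9.91 and 6.65 and Obp18a with 6.61 and 5.52. Obp18a and Obp8a did not overlap either, but by a margin smaller than the distance between the Obp8a libraries.

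**Figure D1:**
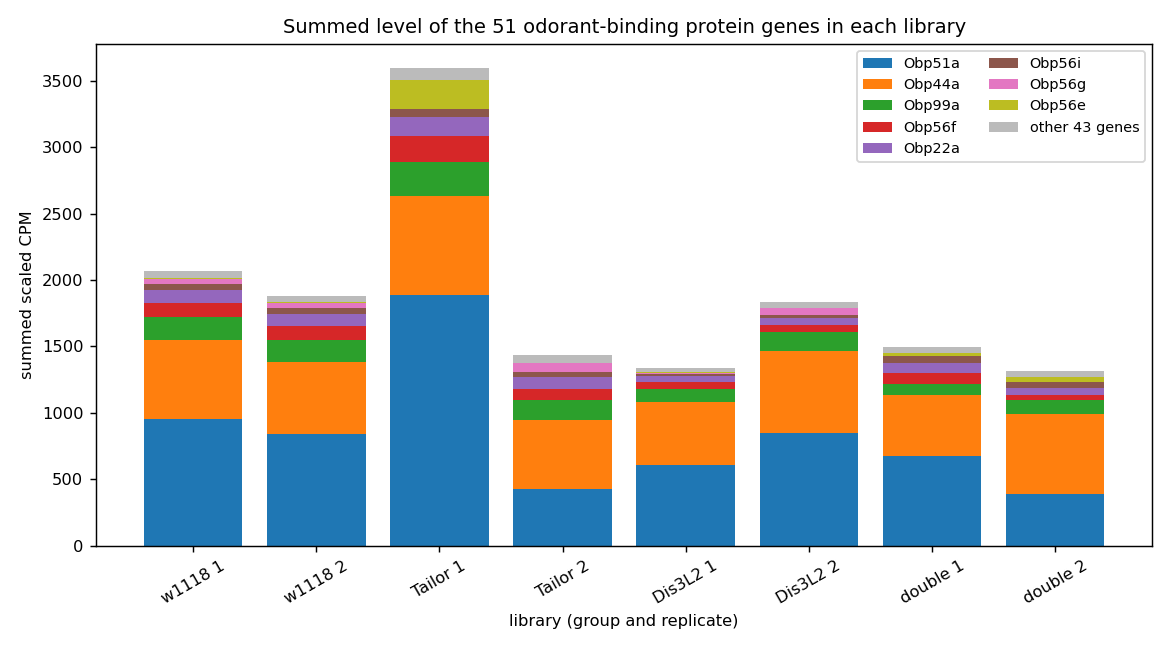
Stacked bars give the summed scaled CPM of the 51 odorant-binding protein genes in each of the 8 libraries, with the 8 genes of highest level coloured and the other 43 in grey. Obp51a and Obp44a fill most of each bar, and the tallest bar, 3598 CPM in Tailor mutant replicate 1, stands beside 1435 CPM in replicate 2 of the same group.

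Of the 51 genes, 27 passed the filter on low counts and were tested, 17 had between 1 and 40 reads over all libraries together, and 7 had none. The genes without a read were Obp19a, Obp47a, Obp50b, Obp50c, Obp57d, Obp57e and Obp83a. Among them Obp83a is one of the abundant proteins of the antenna, and Obp57d and Obp57e are known from taste hairs of the leg. Obp28a, another antennal member, had 2 reads in all, both in double mutant replicate 1. The antennal carrier of the pheromone cis-vaccenyl acetate, lush, is a family member whose symbol lies outside the rule, and it had 0 to 7 reads per library. A limit of the annotation applies to 3 of the genes without a read. Obp50b and Obp50c are annotated over the same 1648 exon bases of the same strand, and Obp57d shares all of its 1488 exon bases with Cpr57A, so reads of these genes may have been left out at counting. Obp59a, needed in the antenna for sensing humidity, had 9 reads, and Obp56h, known for its effect on courtship, had 3.

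The genes sit in clusters left by tandem duplication. By chromosome arm 29 lie on 2R, 12 on 3R, 6 on X, 2 on 2L and 2 on 3L, and 31 have another member within 10 kb. Some close neighbours differed in level. Obp56e (FBgn0034471, 2R:19712345-19712932, plus strand) and Obp56f (FBgn0043533, 2R:19713395-19713976, plus strand) follow each other on the same strand, and in w1118 Obp56e had 8.63 and 6.70 CPM against 106 and 107 for Obp56f. Upstream of them the nearest member, Obp56d, had 15.3 and 16.0 CPM in w1118 and 1679 reads over all 8 libraries. Beyond it Obp56c had 40 reads, Obp56b 6 and Obp56a 279 over the same libraries. Other neighbours were alike in being near 0: Obp19a to Obp19d had at most 22 reads each over all libraries.

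**Figure D2:**
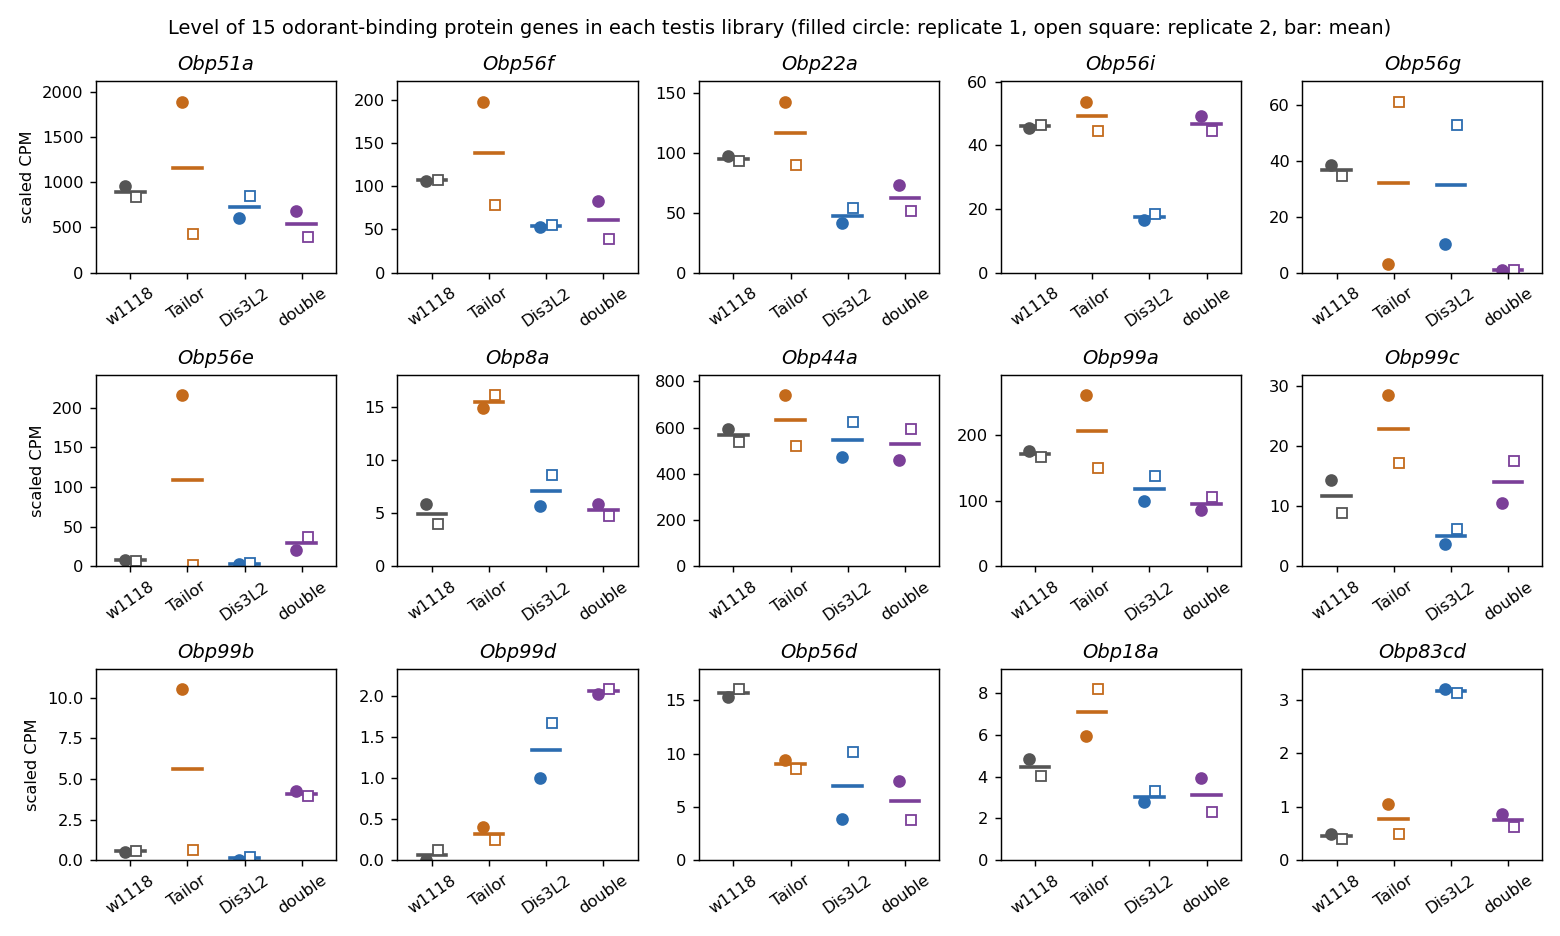
Each panel gives the scaled CPM of 1 gene by genotype on a linear axis from 0, with replicate 1 as a filled circle, replicate 2 as an open square and the mean as a bar. The 15 genes reach a group mean of 5 CPM or have a called change. Obp56i and Obp83cd have replicates close together and a Dis3L2 mutant apart from the other groups, whereas the Tailor mutant libraries of Obp56e, Obp56g and Obp99b lie far from each other.

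The counts of called family members were between 1 and 7 of 27 in the 7 comparisons. Against w1118, 1 of the 27 tested rose and 0 fell in Tailor mutant testes, where 2.00% of all features were called. In the Dis3L2 mutant 2 rose and 1 fell, with 9.22% of all features called, and in double mutant testes 1 rose and 0 fell, with 11.6% called. The double mutant differed from the Tailor mutant in 3 members (1 higher, 2 lower, 14.7% of all features called) and from the Dis3L2 mutant in 2 (1 higher, 1 lower, 9.05% called). The Dis3L2 mutant differed from the Tailor mutant in 7, of which 6 were lower, with 13.0% called. The interaction, which asks whether the log2 change of the double mutant differs from both single changes added together, was called for 2 members, with 4.08% called. At an unadjusted p of 0.05 or less these counts were 7, 7, 7, 8, 7, 14 and 4 in that order, and the shares of all features were 14.7%, 24.6%, 30.4%, 33.2%, 27.0%, 28.2% and 22.3%. The median log2 fold change of the 27 was 0.41 in Tailor mutant testes, -0.26 in Dis3L2 mutant testes and 0.12 in double mutant testes, against 0.02, 0.00 and -0.06 over all features. The comparisons with w1118 share its 2 libraries.

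**Figure D3:**
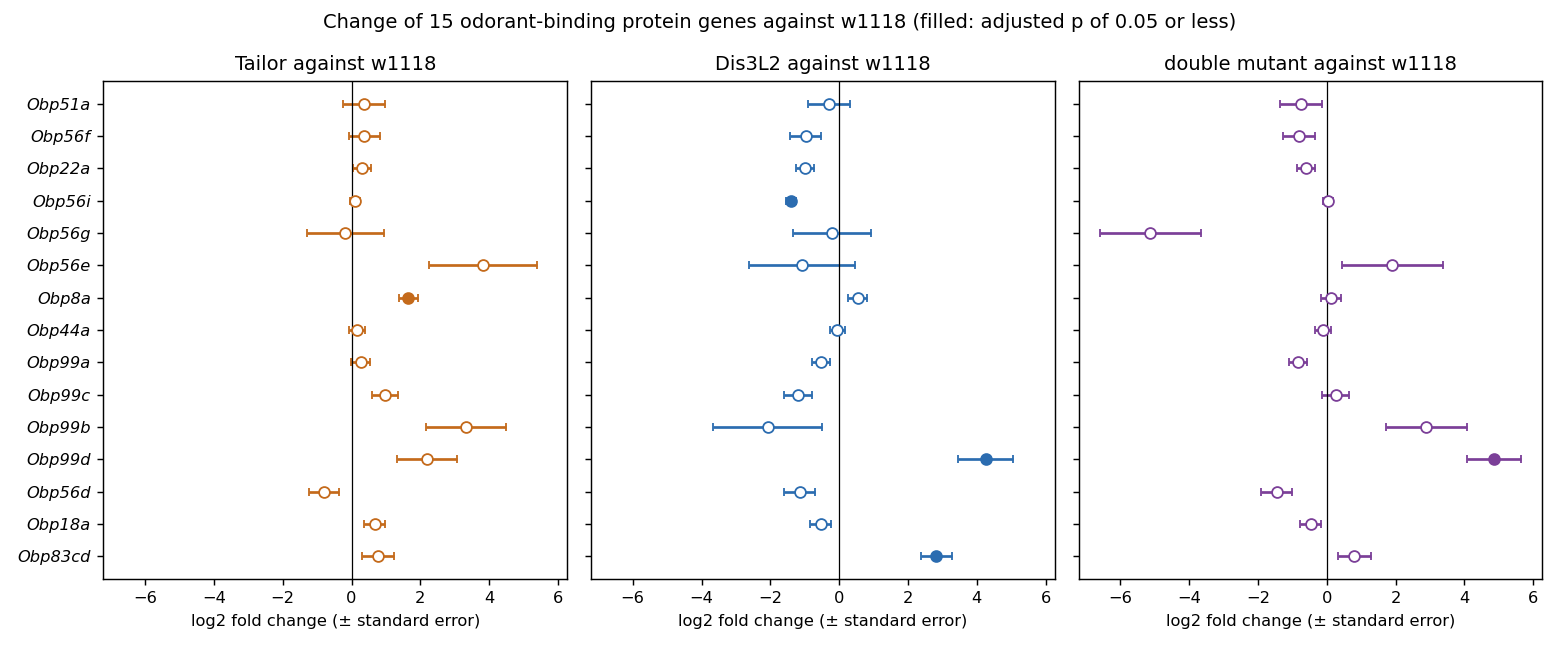
Points give the log2 fold change against w1118 from the fit of all 8 libraries, bars the standard error, and filled points a called change. Filled points are Obp8a in Tailor mutant testes, Obp56i, Obp99d and Obp83cd in Dis3L2 mutant testes and Obp99d in double mutant testes. The widest bars belong to Obp56e, Obp56g and Obp99b.

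Obp56i, one of the odorant-binding proteins transferred in seminal fluid, was low in Dis3L2 mutant testes and between 44.4 and 53.7 CPM in every library of the other genotypes. Its gene (FBgn0043532, 2R:19864717-19868714, plus strand) had 45.4 and 46.5 CPM in w1118, 53.7 and 44.4 in Tailor mutant testes, 16.6 and 18.4 in Dis3L2 mutant testes and 49.1 and 44.6 in double mutant testes. Both Dis3L2 mutant libraries lay below all 6 others. The gene fell with a log2 fold change of -1.39 ± 0.15 against w1118 (adjusted p = 0.00297), or 2.62-fold. It was lower than in Tailor mutant testes too (-1.48 ± 0.15, adjusted p = 0.00242), and higher in double mutant testes than in Dis3L2 mutant testes (1.42 ± 0.15, adjusted p = 0.00325). These 3 calls held in all alternatives run. With the accessory gland level as a term the fall against w1118 was -1.15 (adjusted p = 0.00753). The interaction was 1.32 ± 0.21 (adjusted p = 0.0205). That last call ended without any one library of w1118 (adjusted p = 0.0994 without replicate 1 and 0.102 without replicate 2, an order kept for all such pairs of values), of the Dis3L2 mutant (0.0847 and 0.0763) or of the double mutant (0.0842 and 0.0738), and with a replicate block (0.0533).

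Read against accessory gland genes instead of against the whole library, Obp56i looked different. It had 2.45 and 2.73 reads per 1000 reads of the 30 accessory gland genes in w1118, 0.992 and 3.08 in Tailor mutant testes, 3.09 and 2.59 in Dis3L2 mutant testes and 2.40 and 2.93 in double mutant testes. On this ratio the Dis3L2 mutant overlapped w1118, and Tailor mutant replicate 1 was the lowest library. The accessory gland genes themselves had a median log2 fold change of -1.44 in Dis3L2 mutant testes, with 4 of 30 called lower and none higher, beside 9.22% of all features called in either direction, and 23 at an unadjusted p of 0.05 or less, beside 24.6% of all features.

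Obp51a, Obp22a and Obp56f, other seminal members, also had lower levels in Dis3L2 mutant libraries than in w1118 or levels that overlapped it. Obp51a (FBgn0043530, 2R:15024375-15024839, minus strand) had 952 and 839 CPM in w1118, 1889.5 and 423 in Tailor mutant testes, 607 and 845 in Dis3L2 mutant testes and 675 and 391.9 in double mutant testes. The Tailor mutant held the highest library and, after double mutant replicate 2, the lowest, and no comparison was called. Obp22a (FBgn0043539, 2L:1991381-1992160, minus strand) had 97.1 and 93.0 CPM in w1118, 143 and 90.3 in Tailor mutant testes, 41.2 and 54.1 in Dis3L2 mutant testes and 72.9 and 51.6 in double mutant testes. It was lower in Dis3L2 mutant testes than in Tailor mutant testes (-1.29 ± 0.26, adjusted p = 0.0217), a call that ended without either Dis3L2 mutant library (0.133 and 0.0697), in a fit of those groups alone (0.0824) and with the accessory gland level as a term, where the value was -0.38 (0.337). Against w1118 its log2 fold change in Dis3L2 mutant testes was -0.996 ± 0.261 (adjusted p = 0.0576). This missed the threshold and passed it with DESeq2 (adjusted p = 0.00303), in a fit of both groups alone (0.00713) and without either Tailor mutant library (0.0131 and 0.0106), whereas with the accessory gland term it was -0.38 (0.229). From the Tailor to the double mutant the value was -0.90 ± 0.26 (adjusted p = 0.0590). This passed with DESeq2 (0.00904), no filter (0.0294) and the accessory gland term (-0.60, 0.0217). It did not pass with either other scaling, a minimum count of 30, a replicate block or a fit of those groups alone. With single libraries left out it ranged from -1.18 to -0.52.

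Obp56f had 106 and 107 CPM in w1118, 198 and 78.6 in Tailor mutant testes, 52.9 and 55.4 in Dis3L2 mutant testes and 82.8 and 38.3 in double mutant testes. Both Dis3L2 mutant libraries lay below both of w1118, with no comparison called. Per 1000 accessory gland reads the Dis3L2 mutant held the most of these 3 genes in both libraries. Obp51a had 113 and 119 reads there against 51.3 and 49.2 in w1118, 34.9 and 29.4 in Tailor mutant testes and 32.95 and 25.7 in double mutant testes. Obp22a had 7.64 and 7.60 in Dis3L2 mutant testes against 5.23 and 5.46 in w1118. Obp56f had 9.82 and 7.78 against 5.72 and 6.27.

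**Figure D4:**
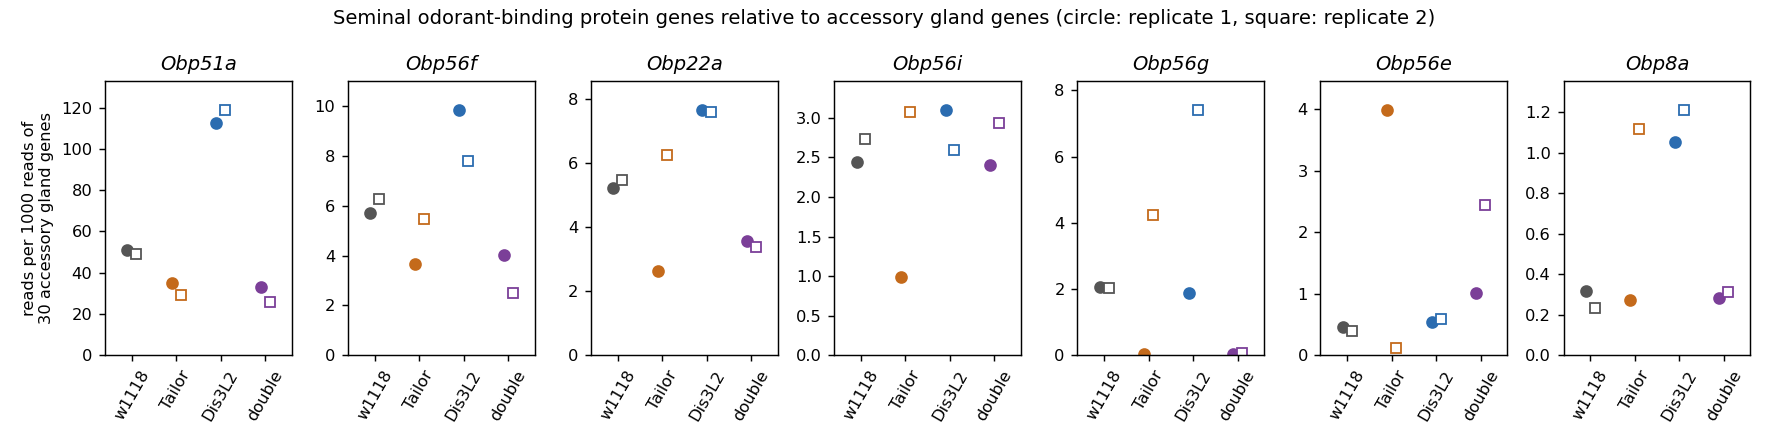
Points give reads of each seminal odorant-binding protein gene per 1000 reads of the 30 accessory gland genes in the same library, on linear axes from 0, with replicate 1 as circles and replicate 2 as squares. Obp51a stands highest in both Dis3L2 mutant libraries, and Obp8a is highest in both of these and in Tailor mutant replicate 2.

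Obp8a, a seminal member on the X chromosome, was the only member of the 27 called in Tailor mutant testes against w1118. The gene (FBgn0030103, X:9214876-9215699, plus strand) had 5.92 and 3.97 CPM in w1118, 14.9 and 16.1 in Tailor mutant testes, 5.66 and 8.60 in Dis3L2 mutant testes and 5.84 and 4.78 in double mutant testes. Both Tailor mutant libraries lay above all 6 others. Per 1000 accessory gland reads the order was another: Obp8a had 0.319 and 0.233 in w1118, 0.275 and 1.118 in Tailor mutant testes, 1.05 and 1.21 in Dis3L2 mutant testes and 0.285 and 0.314 in double mutant testes. On that ratio Tailor mutant replicate 1 lay within w1118, and replicate 2 beside both Dis3L2 mutant libraries. Obp8a rose by 1.65 ± 0.28 on the log2 scale in Tailor mutant testes (adjusted p = 0.0325), or 3.15-fold. It was lower in double mutant testes than in Tailor mutant testes (-1.53 ± 0.28, adjusted p = 0.0166) and lower in Dis3L2 mutant testes than in Tailor mutant testes (-1.11 ± 0.27, adjusted p = 0.0393). The interaction was -2.07 ± 0.39 (adjusted p = 0.0391), and both double mutant libraries lay within the range of w1118. With the accessory gland level as a term the rise was 1.63 (adjusted p = 0.0278) and the interaction -2.11 (0.0265), and the difference between the single mutants was no longer called (0.174).

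The rise of Obp8a was lost without either w1118 library (adjusted p = 0.0996 and 0.236), either Dis3L2 mutant library (0.0503 and 0.0556), either double mutant library (0.0780 and 0.0795), with a replicate block (0.0735) and in a fit of both groups alone (0.161). It ranged from 1.38 to 1.98 over all alternatives. The fall from the Tailor to the double mutant ended without either double mutant library (0.0677 and 0.113) and in a fit of these groups alone (0.0700), and the interaction without either w1118 library (0.0827 and 0.150), either Dis3L2 mutant library (0.0708 and 0.129), either double mutant library (0.101 and 0.139) and with a replicate block (0.0832). The difference between the single mutants ended without w1118 replicate 1 (0.0510), Tailor mutant replicate 2 (0.0584), either Dis3L2 mutant library (0.187 and 0.0730) or either double mutant library (0.0671 and 0.0658), with a replicate block (0.0739) and in a fit of those groups alone (0.0989).

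Obp56g is the member made in the ejaculatory bulb, where it is needed for the mating plug. The gene (FBgn0034474, 2R:19783484-19784043, minus strand) had 38.4 and 34.7 CPM in w1118, 3.06 and 61.2 in Tailor mutant testes, 10.2 and 52.6 in Dis3L2 mutant testes and 1.09 and 0.935 in double mutant testes. Both double mutant libraries were below all others, Tailor mutant replicate 1 came next, and replicates within each single mutant lay far apart. The log2 fold change of the double mutant was -5.13 ± 1.47 against w1118 (adjusted p = 0.0634), -4.95 ± 1.46 against the Tailor mutant (0.0623) and -4.92 ± 1.46 against the Dis3L2 mutant (0.0818), none of them called. All 3 passed without Tailor mutant replicate 1 (0.00620, 0.00600 and 0.00795) and with DESeq2 (0.00324, 0.00432 and 0.00644). Without Tailor mutant replicate 2 the value against the Tailor mutant was -1.53 (0.344), and with the accessory gland level as a term the 3 values were -5.01 (0.0147) against w1118, -4.92 (0.0153) against the Tailor mutant and -2.20 (0.373) against the Dis3L2 mutant.

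The level of Obp56g moved with that of 2 ejaculatory bulb genes, Ebp and EbpII. Ebp, which encodes the major protein of the mating plug, had 229 and 241 CPM in w1118, 1.503 and 358 in Tailor mutant testes, 7.79 and 119 in Dis3L2 mutant testes and 0.674 and 1.45 in double mutant testes. EbpII, another bulb protein, had 70.2 and 64.9, 0.150 and 103, 1.73 and 27.0, and 0.0963 and 0.208 in that order. The same 4 libraries were low for the 3 genes. They were low as well for Sfp87B, Acp24A4 and Sfp24Ba of the accessory gland list, picked after values were seen. Sfp87B had 103 and 75.0 CPM in w1118 and 0.301 and 93.9 in Tailor mutant testes. It had 2.06 and 24.7 in Dis3L2 mutant testes and 0.193 and 0.416 in double mutant testes. The sum of the 30 genes of that list was instead highest in Tailor mutant replicate 1. Genes of the ejaculatory duct did not share this order: Dup99B, Est-6, Anp and Gld together had 4575 and 4229 CPM in w1118, 14438 and 3358 in Tailor mutant testes, 2415 and 3224 in Dis3L2 mutant testes and 4618 and 3045.5 in double mutant testes. Over the whole list of 7 duct and bulb genes, none at 0 in all libraries, the sum was 4580 to 4917 CPM in w1118, 3863 to 14471 in Tailor mutant testes, 2514 to 3492 in Dis3L2 mutant testes and 3083 to 4655 in double mutant testes. The seventh gene, EbpIII, encodes a chemosensory protein of another family and did not share the order of Ebp and EbpII. It had 42.8 and 44.6 CPM in w1118 and 31.9 and 43.4 in Tailor mutant testes. In Dis3L2 mutant testes it had 89.2 and 122, and in double mutant testes 36.6 and 35.9. Its rise in Dis3L2 mutant testes was called (1.28 ± 0.20, adjusted p = 0.0101). How much bulb tissue each dissection held was not tested.

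**Figure D5:**
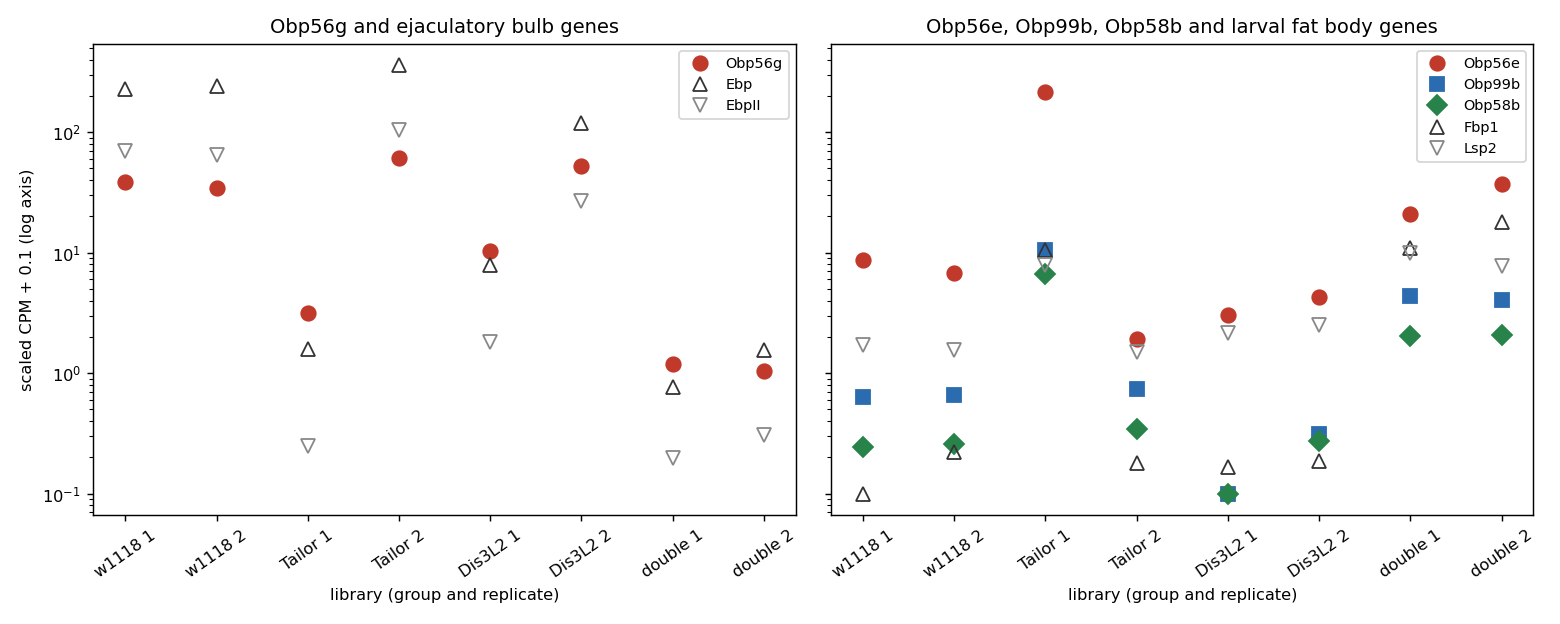
Points give scaled CPM plus 0.1 on a log axis in each library, for Obp56g with the ejaculatory bulb genes Ebp and EbpII at left, and for Obp56e, Obp99b and Obp58b with the fat body genes Fbp1 and Lsp2 at right. Fbp1 and Lsp2 were picked after values were seen from a list of 17 genes, whose sum is lower in Tailor mutant replicate 1 and both double mutant libraries than in w1118. At left Tailor mutant replicate 1, Dis3L2 mutant replicate 1 and both double mutant libraries are low for the 3 genes. At right Tailor mutant replicate 1 and both double mutant libraries stand above the other 5 for each gene.

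Obp56e, Obp99b and the weakly expressed Obp58b and Obp84a were higher in Tailor mutant replicate 1 and in both double mutant libraries than in the other 5. Obp56e, a seminal member, had 8.63 and 6.70 CPM in w1118, 216 and 1.81 in Tailor mutant testes, 2.93 and 4.19 in Dis3L2 mutant testes and 20.8 and 37.2 in double mutant testes. In counts this was 4308 reads in Tailor mutant replicate 1 and 45 in replicate 2. The Tailor mutant held both the highest and the lowest library, so its log2 fold change of 3.83 ± 1.56 against w1118 (adjusted p = 0.317) turned to -2.07 without replicate 1 (adjusted p = 0.0666) and stood at 4.82 without replicate 2 (0.000868). An antisense gene, CR44509, shares 449 of the 532 exon bases of Obp56e, and whether reads were counted by strand is not known. It had 181 reads in Tailor mutant replicate 1 and 64 in replicate 2, and its part in the values of Obp56e was not tested.

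Obp99b (FBgn0039685, 3R:29716254-29716896, minus strand) is known from the fat body of the adult head as a gene of the sex determination pathway. It had 11 and 14 reads in w1118, 210 and 16 in Tailor mutant testes, 0 and 5 in Dis3L2 mutant testes and 132 and 38 in double mutant testes, or 0.533 and 0.562 CPM, 10.5 and 0.643, 0 and 0.214, and 4.24 and 3.95. Tailor mutant replicate 1 was the highest library and the Dis3L2 mutant libraries were the lowest. The Dis3L2 mutant was lower than the Tailor mutant (-5.40 ± 1.43, adjusted p = 0.0493). This call ended without each of the 8 libraries except Tailor mutant replicate 2 (adjusted p from 0.0882 to 0.215), and without Tailor mutant replicate 1 the value was -2.32 (0.105). It ended as well with a replicate block (0.0945), in a fit of both groups alone (0.156) and with the accessory gland level as a term, at -0.07 (0.957). Against w1118 the double mutant had a log2 fold change of 2.89 ± 1.17 (adjusted p = 0.148), which passed without Tailor mutant replicate 1 (0.00920) or replicate 2 (0.00519), with DESeq2 (0.0234), in a fit of both groups alone (0.00385) and with the accessory gland term (0.00624). Against the Dis3L2 mutant it was 4.97 ± 1.44 (adjusted p = 0.0759), which passed without the same libraries (0.00355 and 0.00213) and was 2.01 with the accessory gland term (0.187).

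Obp58b (FBgn0034768, 2R:22704704-22705639, plus strand) and Obp84a (FBgn0011282, 3R:7250725-7251957, minus strand) were singled out after their values were seen. Obp58b had 3 and 4 reads in w1118, 132 and 6 in Tailor mutant testes, 0 and 4 in Dis3L2 mutant testes and 60 and 19 in double mutant testes. Obp84a, a gene of the antenna, had 9 and 2, 72 and 5, 5 and 10, and 26 and 9 reads in that order. Each was highest in Tailor mutant replicate 1 in CPM, and neither was called in any comparison. An opposite-strand gene, Dtwd2, shares 663 of the 817 exon bases of Obp84a and had 40 reads in Tailor mutant replicate 1 and 45 in replicate 2.

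Storage proteins of the larval fat body were high in the same 3 libraries. A set of 6 such genes, Lsp1alpha, Lsp1beta, Lsp1gamma, Lsp2, Fbp1 and Fbp2, picked out of the fat body list after its values were seen, summed to 2.52 and 2.73 CPM in w1118, 25.2 and 2.05 in Tailor mutant testes, 2.86 and 3.08 in Dis3L2 mutant testes and 40.4 and 43.8 in double mutant testes. The whole list of 17 fat body genes, none at 0 in all libraries, summed to 1317 to 1418 CPM in w1118, 715 to 1171 in Tailor mutant testes, 1018 to 1104 in Dis3L2 mutant testes and 570 to 651 in double mutant testes. On the whole list Tailor mutant replicate 1 and both double mutant libraries were therefore the lowest. Of 16 tested, 4 rose and 3 fell in double mutant testes against w1118, beside 11.6% of all features called, with a median log2 fold change of 0.32. Among the rises, Lsp1alpha had 5.93 ± 1.05 (adjusted p = 0.0205) and Fbp2 4.56 ± 1.01 (0.0311), and the iron carrier Tsf1 fell (-1.66 ± 0.23, adjusted p = 0.00682). Whether fat body RNA entered these libraries with the testes was not tested.

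Obp99d (FBgn0039684, 3R:29714505-29715004, plus strand) was nearly silent in w1118 and present at low level in the Dis3L2 and double mutants. It had 0 and 3 reads in w1118, 8 and 6 in Tailor mutant testes, 15 and 39 in Dis3L2 mutant testes and 63 and 20 in double mutant testes. In CPM the order was 0 and 0.120, 0.401 and 0.241, 0.999 and 1.67, and 2.02 and 2.08, and no group overlapped another. From 3 reads in w1118 to 54 in Dis3L2 mutant testes, the scaled ratio was 21.4 (exact 95% interval 6.93 to 107), and to 83 reads in double mutant testes it was 30.9 (10.2 to 153), intervals that cover counting error only. To 14 reads in Tailor mutant testes it was 4.74 (1.32 to 25.7), with no call. Both rises were called (log2 fold change 4.26 ± 0.80, adjusted p = 0.0195, and 4.86 ± 0.79, adjusted p = 0.0124). The double mutant was above the Tailor mutant (2.67 ± 0.65, adjusted p = 0.0361). With the accessory gland level as a term the rises were 4.87 (adjusted p = 0.0247) and 4.84 (0.00472).

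The rise of Obp99d in Dis3L2 mutant testes was no longer called without w1118 replicate 1 (adjusted p = 0.0838) or either Dis3L2 mutant library (0.0680 and 0.111), and that in double mutant testes without w1118 replicate 1 (0.0631) or either double mutant library (0.0627 and 0.0628). The difference between the double and Tailor mutants ended without Tailor mutant replicate 2 (0.0818), either Dis3L2 mutant library (0.0585 and 0.0623) or either double mutant library (0.118 and 0.139), with a replicate block (0.0636) and in a fit of those groups alone (0.0785).

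Obp83cd, whose product joins a pair of odorant-binding domains, was raised in Dis3L2 mutant testes. The gene (FBgn0046878, 3R:6108134-6109733, plus strand) had 10 and 10 reads in w1118, 21 and 12 in Tailor mutant testes, 48 and 73 in Dis3L2 mutant testes and 27 and 6 in double mutant testes, or 0.485 and 0.401 CPM, 1.05 and 0.482, 3.20 and 3.12, and 0.867 and 0.623. Both Dis3L2 mutant libraries lay above all 6 others. The rise against w1118 was 2.82 ± 0.46 on the log2 scale (adjusted p = 0.0116). The level was higher than in Tailor mutant testes (2.05 ± 0.44, adjusted p = 0.0253) and lower in double mutant testes than in Dis3L2 mutant testes (-2.03 ± 0.44, adjusted p = 0.0336). The interaction of -2.80 ± 0.65 missed the threshold (adjusted p = 0.0588) and passed with the accessory gland level as a term (0.0171) and without Tailor mutant replicate 2 (0.0212).

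The calls of Obp83cd ended with the loss of single libraries. That against w1118 was lost without either w1118 library (adjusted p = 0.0924 and 0.113) or either Dis3L2 mutant library (0.0723 and 0.0666), that against the Tailor mutant without the same libraries (0.0572, 0.0551, 0.118 and 0.102) and in a fit of both groups alone (0.0949), and that of the double against the Dis3L2 mutant without these (0.0755, 0.0730, 0.137 and 0.140) or either double mutant library (0.123 and 0.169). Obp83ef lies on the opposite strand and shares 92 of the 899 exon bases. Its own reads were 6 and 9 in w1118, 17 and 5 in Tailor mutant testes, 1 and 5 in Dis3L2 mutant testes and 9 and 8 in double mutant testes, with its lowest CPM in Dis3L2 mutant replicate 1.

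Among members known mainly from outside the reproductive tract, Obp44a was the most abundant. This carrier of fatty acids, secreted by glia (FBgn0033268, 2R:8134170-8135315, minus strand), had 595 and 540 CPM in w1118, 740 and 523 in Tailor mutant testes, 474 and 623 in Dis3L2 mutant testes and 460 and 596 in double mutant testes. Every group overlapped every other, and no comparison was called. Obp99a had 176 and 166 CPM in w1118, 261 and 151 in Tailor mutant testes, 99.2 and 138 in Dis3L2 mutant testes and 85.7 and 106 in double mutant testes. It was lower in double mutant testes than in Tailor mutant testes (-1.11 ± 0.27, adjusted p = 0.0382). That call ended without either w1118 library (0.0802 and 0.0758), Tailor mutant replicate 1 (-0.65, 0.0551), either Dis3L2 mutant library (0.0555 and 0.0525) or either double mutant library (0.167 and 0.135), with a replicate block (0.0698) and in a fit of both groups alone (0.112). Against w1118 the double mutant had -0.84 ± 0.27 (adjusted p = 0.0901), and -0.83 with the accessory gland term (0.0134).

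Obp99c (FBgn0039682, 3R:29685736-29689311, minus strand) had 14.3 and 8.94 CPM in w1118, 28.4 and 17.2 in Tailor mutant testes, 3.80 and 6.25 in Dis3L2 mutant testes and 10.6 and 17.5 in double mutant testes. The Dis3L2 mutant libraries were the lowest of the 8. They lay below the Tailor mutant (-2.17 ± 0.41, adjusted p = 0.0165), a call that ended without either Dis3L2 mutant library (0.117 and 0.0630), in a fit of those groups alone (0.0502) and with the accessory gland level as a term, where the value was -1.36 (0.167). Obp18a (FBgn0030985, X:19135081-19135868, minus strand) had 4.85 and 4.05 CPM in w1118, 5.96 and 8.20 in Tailor mutant testes, 2.80 and 3.30 in Dis3L2 mutant testes and 3.95 and 2.29 in double mutant testes. It was lower in Dis3L2 mutant testes than in Tailor mutant testes (-1.21 ± 0.31, adjusted p = 0.0467), which ended without either w1118 library (0.0896 and 0.0911), Tailor mutant replicate 2 (0.0900) or either Dis3L2 mutant library (0.207 and 0.160), with a replicate block (0.0835), with the accessory gland level as a term (0.0954) and in a fit of both groups alone (0.109). From the Tailor to the double mutant the value was -1.14 ± 0.31 (adjusted p = 0.0512). This passed with DESeq2 (0.0408), no filter (0.0404), a minimum count of 30 (0.0482) and the accessory gland term (-1.18, 0.0288). It did not pass with either other scaling, a replicate block or a fit of those groups alone. With single libraries left out it ranged from -1.63 to -0.83.

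Obp56d, which is made in antennae and in taste organs, was highest in the control. The gene (FBgn0034470, 2R:19702924-19703915, minus strand) had 15.3 and 16.0 CPM in w1118, 9.42 and 8.60 in Tailor mutant testes, 3.86 and 10.1 in Dis3L2 mutant testes and 7.38 and 3.74 in double mutant testes. Both w1118 libraries lay above all 6 others. The log2 fold change was -1.15 ± 0.45 in Dis3L2 mutant testes (adjusted p = 0.167) and -1.45 ± 0.45 in double mutant testes (adjusted p = 0.0812), neither of them called. The second passed with DESeq2 (adjusted p = 0.0126), in a fit of both groups alone (0.0238), with the accessory gland term (0.0424), with no filter (0.0365) and without either Dis3L2 mutant library (0.0444 and 0.0458). It did not pass in the other alternatives.

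The other 12 tested members lay between 0 and 6.61 CPM, and 10 of them, leaving out Obp58b and Obp84a, did not exceed 3.12 CPM in any library. None was called in the 7 comparisons. Obp46a had 3 reads in w1118, 15 in Tailor mutant testes, 26 in Dis3L2 mutant testes and 11 in double mutant testes. Its scaled ratios to w1118 were 5.08 (1.44 to 27.4), 10.3 (3.15 to 53.1) and 4.10 (1.08 to 22.9). Obp50d had 1.75 and 1.20 CPM in w1118, 1.30 and 1.04 in Tailor mutant testes, 1.46 and 1.37 in Dis3L2 mutant testes and 1.25 and 1.14 in double mutant testes. Obp93a had 1.70 and 1.76, 2.85 and 2.01, 1.33 and 1.54, and 2.44 and 3.12 CPM in that order, and 492 of its 591 exon bases are shared with CG5793 on the opposite strand, which had 495 to 1883 reads per library. Obp49a, which damps sweet taste in response to bitter compounds, had 0.471 to 1.14 CPM.

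Other genes of chemical sensing were low in these libraries. Their counts of calls stand beside 2.00%, 9.22% and 11.6% of all features called in Tailor, Dis3L2 and double mutant testes. Odorant receptors, the ion channels that odorant-binding proteins serve, summed to 25.04 to 55.8 CPM over 61 genes, and of 14 tested 0 were called in Tailor mutant testes, 1 rose and 1 fell in Dis3L2 mutant testes and 2 fell in double mutant testes against w1118. Ionotropic receptors summed to 37.0 to 46.7 CPM over 66 genes, with 1 of 25 lower in Tailor mutant testes, 1 higher and 3 lower in Dis3L2 mutant testes and 2 lower in double mutant testes. Gustatory receptors summed to 21.3 to 32.1 CPM over 60 genes, with 0 of 21 called, 1 higher and 2 lower, and 2 higher and 1 lower in that order. Of the 20 CheA and CheB genes 4 were tested and none was called. Snmp1 had 3.10 and 4.45 CPM in w1118, 3.86 and 5.75 in Tailor mutant testes, and 5.99 and 5.65 in Dis3L2 mutant testes. In double mutant testes it had 2.47 and 2.29. It was not called against w1118, and was lower in the double than in the Dis3L2 mutant (-1.28 ± 0.30, adjusted p = 0.0395). Snmp2, a CD36-like membrane protein of antennal support cells, was called in both genotypes that carry the Tailor mutation. It had 4.27 and 4.05 CPM in w1118, 15.6 and 14.0 in Tailor mutant testes, 4.86 and 5.44 in Dis3L2 mutant testes and 10.9 and 8.52 in double mutant testes, and rose in Tailor mutant testes (1.83 ± 0.19, adjusted p = 0.00606) and in double mutant testes (1.23 ± 0.19, adjusted p = 0.0106).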

How the data were processed

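Total RNA libraries of testes from 4 genotypes, 2 libraries each, were compared. Per the labels, the libraries of a genotype came from independent dissections and were made with a TruSeq total RNA kit. Trimming with Trimmomatic 0.36 and alignment to dm6 with HISAT2 are named in the submitters' processing notes. The deposited table holds the authors' raw read counts per gene and transposon insertion. How reads were counted, on which gene models, with or without strand and with what rule for reads of several positions, is not known, so that values of overlapping and of similar genes are uncertain.

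Normalization used trimmed means of M values in edgeR 4.0.16 under R 4.3.3. Features were kept by filterByExpr at a minimum count of 10, and 14246 of them entered 1 quasi-likelihood model of the 4 genotypes with Benjamini-Hochberg adjusted p-values. The 7 comparisons were the 6 pairs of genotypes and the interaction. The ± beside a log2 fold change is its size over the square root of the F statistic. CPM used the scaled library sizes, and exon length is the union of annotated exons. Where w1118 had 1 to 3 reads of a tested member, ratios carry an exact 95% conditional binomial interval. Alternatives were relative log expression and upper quartile scaling, DESeq2 1.42.0, no filter, a minimum count of 30, the groups compared alone, a replicate block, the accessory gland level (the log2 sum of 30 marker genes) as a term, and each library left out. Genes given in full reach a genotype mean of 5 CPM or have a called change. Members and lists were chosen with earlier results of these data known. Sequences were not used here.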

Additional observations from a re-analysis of the deposited data

Results flagged for a closer look

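For 2 odorant-binding protein genes the interaction was called, so the log2 change of the double mutant differed from both single changes added together. Strain cannot be separated from genotype in this test, because the origin of the lines is unknown. RNA of Dis3l2 stood at 30.7 and 30.8 CPM in double mutant testes and at 9.99 and 10.6 in Dis3L2 mutant testes. What part strain or this difference in Dis3l2 RNA played was not tested. For Obp56i the interaction was 1.32 ± 0.21 on the log2 scale (edgeR, adjusted p = 0.0205), with a log2 fold change of -1.39 in Dis3L2 mutant testes and 0.03 in those of the double mutant against w1118. For Obp8a it was -2.07 ± 0.39 (adjusted p = 0.0391), with 1.65 in the Tailor mutant and 0.12 in the double mutant. Both calls ended when single libraries of w1118, the Dis3L2 mutant or the double mutant were left out. Groups of 2 are too small for the outlier test applied to single values, so none was run.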

How the results depend on the processing

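The number of odorant-binding protein genes called depended on the test. The counts reported were 1 (Tailor mutant against w1118), 3 (Dis3L2 mutant against w1118), 1 (double mutant against w1118), 3 (double against Tailor mutant), 2 (double against Dis3L2 mutant), 7 (Dis3L2 against Tailor mutant) and 2 (interaction). In that order DESeq2 gave 3, 5, 6, 7, 6 and 11 before the interaction, where it gave 2 as reported, beside 3.55% to 18.6% of all features. Without a filter the double mutant gave 3 against w1118, 6 against the Tailor mutant and 5 against the Dis3L2 mutant (9.95%, 11.7% and 7.87% of all features). A fit of the groups compared alone gave 0, 8, 7, 0, 7 and 1, beside 0.0361%, 18.4%, 27.6%, 0.146%, 16.1% and 3.04% of all features, and could not be made for the interaction, which needs all groups. The accessory gland level as a term gave 2 for the Tailor mutant, 10 for the double mutant against w1118, 7 for the double against the Tailor mutant, 3 for the Dis3L2 against the Tailor mutant and 4 for the interaction, beside 3.59%, 25.4%, 29.3%, 10.6% and 9.41% of all features. Leaving out each library gave 0 to 5, 1 to 5, 0 to 6, 0 to 7, 1 to 7, 1 to 12 and 0 to 5 in the order above. Each of these fits leaves 1 library in a group, and the share of all features called changed too. The ranges therefore do not show instability of the family in particular. The scalings gave the reported counts. The causes were not tested.

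Samples share replicate numbers, but nothing in the labels pairs them: correlations of replicate 1 deviations between genotypes ranged from -0.304 to 0.280. With the replicate block the counts were 0 for the Tailor mutant, 1 for the double against the Tailor mutant, 4 for the Dis3L2 against the Tailor mutant and 0 for the interaction. The shares of all features fell as well, to 1.07%, 7.91%, 7.85% and 1.54%, from 2.00%, 14.7%, 13.0% and 4.08% without the block. The counts of the other 3 comparisons were as reported, with lower shares of all features.

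Of 43 values of single genes followed, direction turned in 4. Obp56e in the Tailor mutant against w1118 went to -0.58 with the accessory gland term and ranged from -2.07 without Tailor mutant replicate 1 to 4.82 without replicate 2. In the Dis3L2 against the Tailor mutant, Obp56e went to 4.31 and, over the same libraries left out, from 0.97 to -5.89, and with the accessory gland term Obp56f went to 0.43 and Obp99a to 0.11. Depth limits the 24 untested members, which had at most 40 reads in all.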
